A study of Mus musculus with 12 samples.

Results

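The E2F transcription factors and the retinoblastoma (RB) pocket proteins were followed as 10 genes, E2f1 to E2f8, Rb1 and Rbl1, in CommaDβ cells, a line of normal mouse mammary epithelial cells. They were taken by symbol from the 21853 genes of the deposited expression table, where each had 1 entry. The members are 3 activators (E2f1, E2f2 and E2f3), 5 repressors (E2f4 to E2f8) and 2 pocket proteins (Rb1 and Rbl1). RNA-seq of total RNA covered 4 groups of 3 libraries each. Scahigh34a cells were sorted by flow cytometry as Sca-1 positive, carried the lentiviral vector pSliK34a, which makes miR-34a under doxycycline, and had received doxycycline for 24 h. ScahighNT cells carried the same vector and were not induced. Scahigh cells were Sca-1 positive and uninfected, and are described by the study as the undifferentiated, basal part of the line. Scalow cells were Sca-1 negative, uninfected, and are described as its differentiated, luminal part. All groups came from the same cell line. The labels do not tell whether libraries of 1 group were grown apart, so p-values cover the spread among these libraries only, and that spread may be technical. No cells with doxycycline and no vector were analysed here, and the drug and the miRNA cannot be told apart.

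E2F proteins bind a short GC-rich motif in the promoters of genes for DNA replication and the cell cycle, most of them as dimers with a DP protein. In resting and early G1 cells the pocket proteins RB (from Rb1), p107 (from Rbl1) and p130 (from Rbl2) hold E2Fs in repressing complexes. Cyclin-dependent kinases phosphorylate the pocket proteins, release the activators, and start the expression of S phase genes. E2F7 and E2F8 act without a DP partner or a pocket protein, and their genes are themselves E2F targets that close the wave of transcription late in S phase. miR-34a is a microRNA induced by p53 that pairs, through its seed, with the 3′ UTRs of its target mRNAs.

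The sequence of the induced miRNA and its matches in the family are shown because miR-34a is what the vector makes and its seed is the part that pairs with target mRNAs. The mature miRNA (RefSeq, GRCm38.p6, chr4:150068473-150068494, plus strand) has its seed, bases 2 to 8, in capitals.
mmu-miR-34a-5p: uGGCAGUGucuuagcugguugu
The longest annotated 3′ UTR of each member (GENCODE vM21, GRCm38) was searched for the letters opposite bases 2 to 8 (CACTGCC) and for those opposite bases 2 to 7 followed by A (ACTGCCA). E2f2, E2f3 and E2f5 held such letters, E2f3 in 2 places. Over 20966 protein-coding genes with a 3′ UTR, 19.7% held at least 1 match. The median length of those UTRs was 954 bases, and the UTRs of E2f2, E2f3 and E2f5 had 3020, 3328 and 592 bases. The matches are in capitals, and all are written along the mRNA.
E2f2 (chr4:136193286-136193308, plus strand): aaagggctCACTGCCtccttctg
E2f3 (chr13:29909181-29909203, minus strand): cccacttcCACTGCCcccatcct
E2f3 (chr13:29907156-29907179, minus strand): tttgtaaaCACTGCCAgaatattt
E2f5 (chr3:14606082-14606105, plus strand): cagacattCACTGCCAtatataaa
The last 2 sites pair with bases 2 to 8 and are followed by A. E2f1, E2f4, E2f6, E2f7, E2f8, Rb1 and Rbl1 had no match in UTRs of 618 to 2546 bases, which says only that these letters are not in the UTR searched.

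The E2F motif was searched in promoter windows of RefSeq (250 bases before to 50 after a start, GRCm38.p6) as TTTCCCGC, TTTCGCGC, TTTGCCGC or TTTGGCGC on both strands. It was present in 2.26% of all 32851 windows. By gene, 704 of 27025 genes with a window (2.6%) held it in at least 1 window. Windows were given for 7 members, and 4 of these members (Rbl1, E2f2, E2f3 and E2f7) held the motif. E2f2 and E2f3 each had a further window without it. Of 32 genes on a list of known E2F targets that had a window, 15 (46.9%) held it. E2f6 and E2f8 had none of these letters in their windows. The start used for the window of E2f1 lay 466 bases downstream of the GENCODE start of the gene, and that window held no motif. No window was given for E2f4, E2f5 or Rb1. The 250 bases before the start are shown for Rbl1 and E2f7, the members with a motif before the start whose transcripts were called lower in Scahigh34a than in ScahighNT cells, with the motif in capitals.
Rbl1 (chr2:157204535-157204784, minus strand): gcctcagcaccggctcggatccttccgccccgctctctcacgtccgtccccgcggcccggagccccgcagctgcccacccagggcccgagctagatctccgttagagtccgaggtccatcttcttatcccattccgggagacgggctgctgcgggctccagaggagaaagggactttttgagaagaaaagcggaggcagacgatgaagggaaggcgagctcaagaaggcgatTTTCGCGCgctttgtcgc
E2f7 (chr10:110745189-110745438, plus strand): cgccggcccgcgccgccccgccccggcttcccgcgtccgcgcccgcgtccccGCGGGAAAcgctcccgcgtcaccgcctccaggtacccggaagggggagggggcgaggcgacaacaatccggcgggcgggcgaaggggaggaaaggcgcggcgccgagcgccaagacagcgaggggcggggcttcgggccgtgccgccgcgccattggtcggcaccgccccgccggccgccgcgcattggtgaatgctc
The motif ended 10 bases before the start in Rbl1 and 190 bases before it in E2f7. E2f2 and E2f3 also held the motif and were not called between Scahigh34a and ScahighNT cells, while E2f8 held none and was called lower. A match is a description of letters, and binding was not measured.

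Levels are given as scaled RPKM, that is, reads per length of the gene and depth of the library, divided by a scaling factor of the library. Whole reads could be recovered for 15630 genes and came to 21482695 to 25812837 per library. These genes held 49.7 to 55.5% of the summed RPKM of a library, so the sums are not its full depth. The induced miRNA checked the labels, with Mir34a at 74.9 to 128 RPKM in Scahigh34a libraries and at 0.372 to 0.928 RPKM in ScahighNT libraries. A further label on the genotype names the vector-carrying groups the other way round, and the groups here follow titles and sources, with which the Mir34a level goes. The sort gene Ly6a averaged 11.4 ± 1.82 RPKM in Scahigh and 1.32 ± 0.491 RPKM in Scalow cells (SD, n = 3 each). Of 7 luminal markers, Krt8, Krt18, Epcam and Cdh1 were lower in Scahigh than in Scalow cells (Krt8 at 2.24 ± 0.1997 and 111 ± 7.48 RPKM), Gata3 was higher, at 5.06 ± 1.73 RPKM in Scahigh and 2.07 ± 0.264 RPKM in Scalow cells, and Krt19 and Elf5 were at most 0.741 RPKM in every library. Of 6 basal markers, 5 were higher in Scahigh than in Scalow cells, and Krt17 was not called. The leukocyte gene Ptprc and the endothelial genes Pecam1 and Cdh5 were at most 0.0773 RPKM, while Cd68, of the leukocyte list, averaged 0.811 to 1.62 RPKM over the groups. Of the fibroblast genes, Lum and Pdgfra were at most 0.384 RPKM in every library, and Dcn was at 0.268 ± 0.0489 RPKM in Scahigh34a, 1.72 ± 0.362 RPKM in ScahighNT and 0.224 ± 0.0380 RPKM in Scahigh cells. Library 3, a Scahigh library, and library 12, a Scahigh34a library, stood apart from the others of their groups, with a chi-square per gene of 31.4 to 69.1 against 5.42 to 14.6 among all other pairs within a group. The proliferation genes Mki67 and Top2a moved with the outcome, Mki67 at 2.51 ± 0.278 RPKM in Scahigh34a and 43.2 ± 1.61 RPKM in ScahighNT cells and Top2a at 6.45 ± 0.363 and 92.5 ± 6.91 RPKM (SD, n = 3 each). All 6 basal markers (Krt5, Krt14, Krt17, Trp63, Acta2 and Itga6) were also lower in Scahigh34a than in ScahighNT cells. Their summed level was 489.6 to 550.1 RPKM in Scahigh34a, 2051 to 2281 RPKM in ScahighNT and 1350 to 1653 RPKM in Scahigh libraries. Krt17 was at 39.3 ± 5.91 RPKM in Scahigh34a, 612 ± 75.2 RPKM in ScahighNT and 50.9 ± 3.49 RPKM in Scahigh cells (SD, n = 3 each). Against Scahigh cells, 5 of the 6 basal markers were lower in Scahigh34a cells, and Krt17 was not called. The part of these proliferation, basal and fibroblast markers in the results below was not tested. In such bulk samples, fewer cells of a type and less RNA per cell cannot be told apart.

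The comparison of induced with uninduced cells asked which genes change in undifferentiated cells with doxycycline and the miR-34a it induces, which cannot be told apart here. In Scahigh34a cells the atypical repressors E2f7 and E2f8, the pocket protein gene Rbl1 and the activator E2f1 fell, to 6.15%, 9.14%, 17.4% and 46.8% of their ScahighNT levels. The other 6 members did not pass the thresholds (limma, Benjamini-Hochberg adjusted p below 0.01 over 10597 tested genes and an absolute log2 fold change above 0.5). Among all tested genes, 21.4% were called lower and 17.5% higher in this comparison. The 4 calls among the 10 members, all lower, are thus near the share called over all genes in both directions together. No member was called higher by limma, none had a positive change at an unadjusted p under 0.05, and limma-voom on the recovered reads also called none higher. The median log2 fold change of the 10 members was −0.42, beside −0.03 over all tested genes. The 4 calls were kept with each library left out in turn and with libraries 3 and 12 both left out. All 10 members passed the filter of 1 RPKM in at least 3 libraries, but E2f2, E2f7 and E2f8 were under 1 RPKM in each Scahigh34a library and passed through the other groups.

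E2f7 and E2f8 encode E2Fs with a pair of DNA-binding domains that repress E2F targets, E2f1 among them. E2f7 was at 0.0751, 0.0489 and 0.109 RPKM (54, 35 and 82 reads) in Scahigh34a libraries, against 1.34, 1.30 and 1.14 RPKM (919, 954 and 802 reads) in ScahighNT libraries. Its log2 fold change was −2.95 ± 0.17 (SE, adjusted p = 3.1e-08), a value that the pseudocount of 0.1 RPKM keeps below the 16.3-fold ratio of the mean RPKM. E2f8 was at 0.360, 0.230 and 0.591 RPKM (116, 74 and 199 reads) in Scahigh34a libraries, against 4.40, 4.56 and 3.97 RPKM (1352, 1495 and 1249 reads) in ScahighNT libraries. The highest Scahigh34a library of both genes, library 12, lay far below the lowest ScahighNT library, and E2f8 changed by −3.22 ± 0.26 on the log2 scale (SE, adjusted p = 4.8e-07), or 10.9-fold in mean RPKM. Exons of E2f8 share 610 bases with Gm2788 on the opposite strand, and 86 bases of E2f7 lie under another gene on the opposite strand, so reads from these stretches cannot be assigned without a strand.

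Rbl1 encodes p107, the pocket protein that is made in proliferating cells from an E2F-dependent promoter. It was at 1.57, 1.73 and 1.66 RPKM in Scahigh34a libraries, against 9.42, 9.34 and 9.88 RPKM in ScahighNT libraries. These narrow groups gave the smallest p of the family, with a log2 fold change of −2.46 ± 0.06 (SE, adjusted p = 1.1e-11). Rb1, the founding tumour suppressor of the family, was at 1.71, 1.76 and 2.03 RPKM in Scahigh34a libraries, against 2.45, 2.45 and 2.31 RPKM in ScahighNT libraries. Its groups did not overlap, but the log2 fold change of −0.37 ± 0.11 (SE, adjusted p = 0.011) passed neither threshold. Rbl2, the third pocket protein gene and no member of the set, was looked at after its values were seen. It encodes p130, which is most abundant in resting cells, and it was higher in Scahigh34a cells, at 2.53 ± 0.160 RPKM against 1.71 ± 0.0419 RPKM in ScahighNT cells (SD, n = 3 each), with a log2 fold change of 0.53 ± 0.07 (SE, adjusted p = 4.8e-05). With a pseudocount of 1 RPKM this change was 0.38, under the fold threshold.

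Among the activators, E2f1, the founder of the family and a driver of S phase entry, was at 0.964, 0.976 and 1.51 RPKM (225, 227 and 369 reads) in Scahigh34a libraries, against 2.59, 2.64 and 2.16 RPKM (576, 626 and 492 reads) in ScahighNT libraries. Library 12 was the highest of the induced libraries, and the groups did not overlap. The log2 fold change was −1.06 ± 0.21 (SE, adjusted p = 0.0010). E2f2, with a seed match in its 3′ UTR, was at 0.844, 0.770 and 0.757 RPKM in Scahigh34a libraries, against 1.14, 1.13 and 1.12 RPKM in ScahighNT libraries. Its log2 fold change of −0.47 ± 0.07 (SE, adjusted p = 0.00014) passed the p threshold and missed the fold threshold, which it passed with a pseudocount of 0.01 RPKM (−0.51). E2f3, which has a pair of seed matches, was at 2.74, 2.74 and 3.03 RPKM in Scahigh34a libraries, against 3.43, 3.66 and 3.56 RPKM in ScahighNT libraries, a log2 fold change of −0.32 ± 0.07 (SE, adjusted p = 0.0014) that also missed the fold threshold.

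Of the repressors that need a DP partner, E2f4, E2f5 and E2f6, E2f4 showed the smallest difference of all members. The log2 fold changes of E2f5 and E2f6 were within an SE of that of E2f3 (−0.32 ± 0.07, SE). E2f4, which works mainly with p130 and p107, was the most abundant E2f per length in every library, at 17.2, 16.6 and 17.5 RPKM in Scahigh34a libraries and 18.2, 18.05 and 16.8 RPKM in ScahighNT libraries. The groups overlapped, and the 95% interval of its log2 fold change ran from −0.20 to 0.11. E2f5, a p130 partner with a seed match followed by A, was at 2.82, 3.07 and 2.54 RPKM in Scahigh34a libraries, against 3.21, 3.34 and 3.92 RPKM in ScahighNT libraries, and its log2 fold change of −0.30 ± 0.09 (SE, adjusted p = 0.011) passed neither threshold. E2f6, which represses through Polycomb partners and without a pocket protein, was at 2.42, 2.34 and 2.59 RPKM in Scahigh34a libraries, against 3.03, 2.92 and 3.01 RPKM in ScahighNT libraries, with a log2 fold change of −0.28 ± 0.07 (SE, adjusted p = 0.0050) under the fold threshold. The 3 members with seed matches had log2 fold changes of −0.47, −0.32 and −0.30. Of the 7 without a match, E2f4, E2f6 and Rb1 had −0.05, −0.28 and −0.37, and the other 4 were those called lower.

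**Figure D1:**
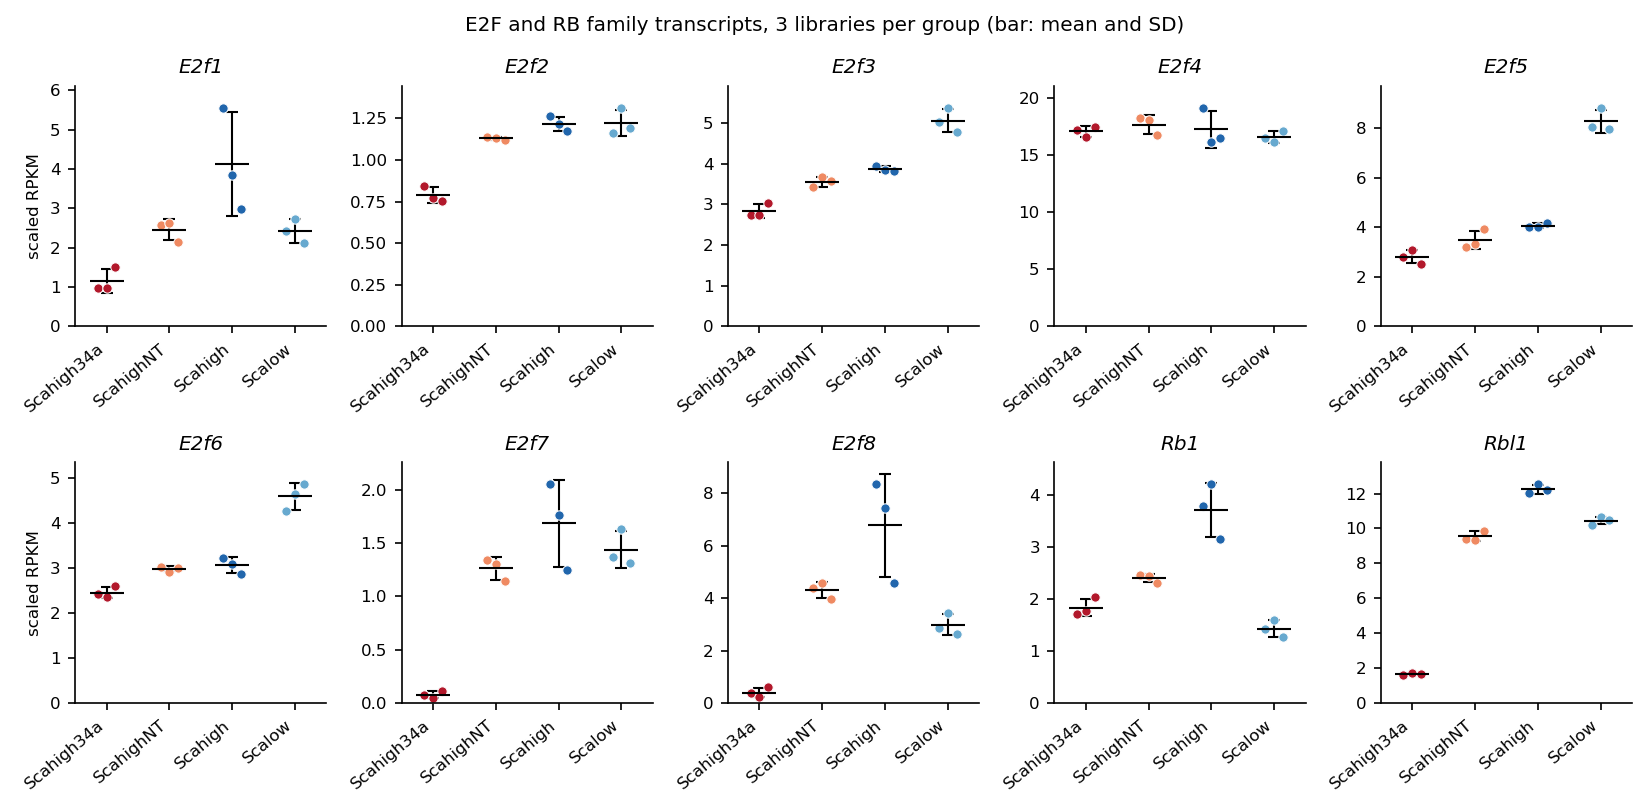
Scaled RPKM (y axis, linear and starting at 0 in each panel) of the 10 members in Scahigh34a, ScahighNT, Scahigh and Scalow libraries. Points are libraries in the order of the table and bars are mean and SD over 3 libraries. Every member but E2f4 and Rb1 was lower in each Scahigh34a library than in any other library. E2f4 stayed between 16.1 and 19.1 RPKM in all 12.

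**Figure D2:**
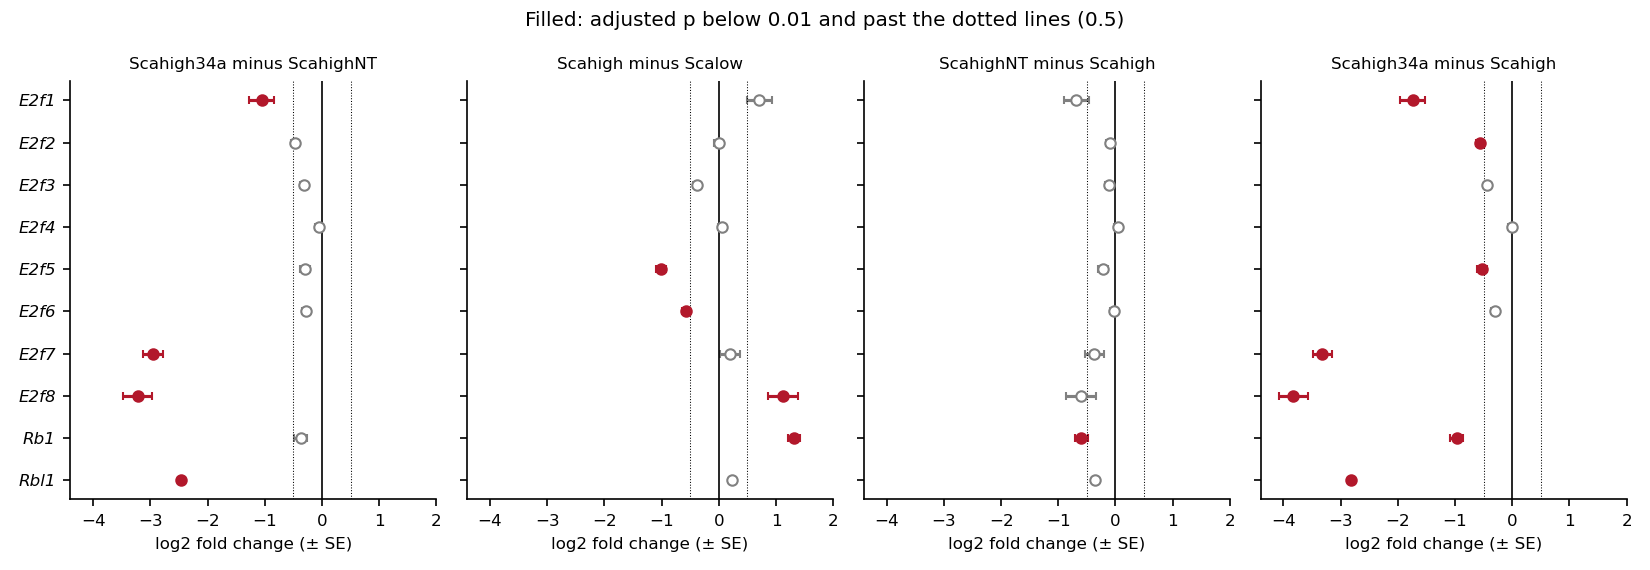
Log2 fold changes on the scale of log2(scaled RPKM + 0.1) with their SE for the 10 members in 4 comparisons. Filled points had an adjusted p below 0.01 and lay past the dotted lines at 0.5, which was so for 4, 4, 1 and 7 members from left to right.

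The comparison of uninfected Scahigh with Scalow cells asked how the undifferentiated and differentiated parts of the line differ. In Scahigh cells Rb1 and E2f8 were higher and E2f5 and E2f6 were lower. Over all tested genes, 19.9% were called higher and 20.4% lower, so the 4 calls among 10 members are near the share called over all genes. Rb1 was at 3.78, 4.21 and 3.16 RPKM in Scahigh libraries, against 1.43, 1.59 and 1.27 RPKM in Scalow libraries, a log2 fold change of 1.32 ± 0.11 (SE, adjusted p = 7.8e-07). Its exons share 408 bases with Lpar6 and 488 bases with Rcbtb2, both on the opposite strand. Rbl2 was at 3.06 ± 0.144 RPKM in Scahigh and 1.27 ± 0.0783 RPKM in Scalow cells (SD, n = 3 each), with a log2 fold change of 1.21 ± 0.07 (SE, adjusted p = 3.3e-08). Rbl1, by contrast, was at 12.02, 12.5 and 12.2 RPKM in Scahigh libraries and 10.2, 10.7 and 10.5 RPKM in Scalow libraries, and its log2 fold change of 0.23 ± 0.06 (SE, adjusted p = 0.0037) missed the fold threshold.

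E2f8 was at 8.35, 7.45 and 4.58 RPKM in Scahigh libraries, against 2.87, 3.43 and 2.65 RPKM in Scalow libraries. Library 3 was the lowest Scahigh library, and the log2 fold change was 1.12 ± 0.26 (SE, adjusted p = 0.0022). The call was lost without library 1, 2, 4 or 6, with an adjusted p of up to 0.013 and log2 fold changes of 0.96 to 1.40 over the libraries left out. E2f1 was at 5.56, 3.85 and 2.98 RPKM in Scahigh libraries, against 2.43, 2.72 and 2.11 RPKM in Scalow libraries. The groups did not overlap, and the log2 fold change of 0.71 ± 0.21 (SE, adjusted p = 0.012) missed the p threshold. It passed with a pseudocount of 1 RPKM (0.56, adjusted p = 0.0088), with unscaled values (0.79, adjusted p = 0.0050), with upper quartile scaling (0.78, adjusted p = 0.0086) and by limma-voom (0.75, adjusted p = 0.0084), and without library 3 (0.93, adjusted p = 0.0018) or library 12 (0.71, adjusted p = 0.0065). E2f7, the partner of E2f8, was at 2.05, 1.77 and 1.25 RPKM in Scahigh libraries and 1.37, 1.63 and 1.31 RPKM in Scalow libraries, where the groups overlapped and the 95% interval of the log2 fold change ran from −0.18 to 0.57.

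E2f5 was at 4.01, 4.03 and 4.19 RPKM in Scahigh libraries, against 8.06, 8.83 and 7.996 RPKM in Scalow libraries. It was thus 49.1% of its Scalow level, with a log2 fold change of −1.01 ± 0.09 (SE, adjusted p = 1.2e-06). E2f6 was at 3.22, 3.08 and 2.87 RPKM in Scahigh libraries, against 4.28, 4.64 and 4.86 RPKM in Scalow libraries, a log2 fold change of −0.57 ± 0.07 (SE, adjusted p = 2.2e-05). This call was lost without scaling (−0.49), with upper quartile scaling (−0.49) and with a pseudocount of 1 RPKM (−0.46), each time by the fold. E2f3 was lower in each Scahigh library, at 3.87 ± 0.0759 RPKM against 5.06 ± 0.293 RPKM in Scalow cells (SD, n = 3 each), but its log2 fold change of −0.38 ± 0.07 (SE, adjusted p = 0.00037) missed the fold threshold. The groups of E2f2 and E2f4 overlapped, and the 95% intervals of their log2 fold changes ran from −0.16 to 0.16 and from −0.10 to 0.21.

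The comparison of ScahighNT with Scahigh cells measures what the uninduced vector, the infection and any separate handling changed together, and these cannot be told apart. Rb1 fell to 2.40 ± 0.0842 RPKM in ScahighNT cells, against 3.72 ± 0.525 RPKM in Scahigh cells (SD, n = 3 each), a log2 fold change of −0.60 ± 0.11 (SE, adjusted p = 0.0010). It was the single call among the members, where 11.1% of all tested genes were called lower and 10.4% higher (1104 higher and 1181 lower). Upper quartile scaling moved the median of all tested genes by −0.11 and gave 791 higher and 1607 lower. No member was called higher by limma or by limma-voom, and none had a positive change at an unadjusted p under 0.05. Rbl2, which is not among the members, was lower too, at 1.71 ± 0.0419 RPKM in ScahighNT and 3.06 ± 0.144 RPKM in Scahigh cells (SD, n = 3 each), with a log2 fold change of −0.80 ± 0.07 (SE, adjusted p = 4.1e-06). Rbl1 passed the p threshold only (−0.36 ± 0.06, SE, adjusted p = 0.00031). E2f1 had a log2 fold change of −0.68 ± 0.21 (SE, adjusted p = 0.021), and E2f8 −0.60 ± 0.26 (SE, adjusted p = 0.070). Without library 3, the count went to 4 members, all lower, as E2f1, E2f7 and E2f8 joined, and without library 12 it was 2, as E2f1 joined. With a pseudocount of 1 RPKM, Rb1 was lost and no member was called. Of the basal markers, Krt17 was higher and Acta2 lower in ScahighNT cells. The summed luminal markers were at 6.29 to 7.28 RPKM in ScahighNT and 18.2 to 21.3 RPKM in Scahigh libraries. Of the proliferation genes, Mki67 was lower in ScahighNT cells, with a log2 fold change of −0.55 ± 0.08 (SE, limma adjusted p = 0.00026). Top2a, at −0.26 ± 0.08 (SE, limma adjusted p = 0.023), was not called. The part of these markers in the values of the members was not tested.

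Scahigh34a cells set against uninfected Scahigh cells share their libraries with the comparisons above, and the values are given side by side. Here 7 members were lower, against 25.3% of all tested genes called lower and 22.2% called higher. The log2 fold changes were −3.82 for E2f8, −3.32 for E2f7, −2.81 for Rbl1, −1.74 for E2f1, −0.97 for Rb1, −0.57 for E2f2 and −0.52 for E2f5. Rbl2, higher in Scahigh34a than in ScahighNT cells, had a log2 fold change of −0.27 ± 0.07 against Scahigh cells (SE, adjusted p = 0.0056), under the fold threshold, at 2.53 ± 0.160 RPKM in Scahigh34a and 3.06 ± 0.144 RPKM in Scahigh cells (SD, n = 3 each). E2f2 and E2f5 were both lost with a pseudocount of 1 RPKM and without a filter, which moved the median of all tested genes by 0.11, and E2f5 was lost with unscaled values and without library 12. No member was called higher by limma or limma-voom, and none had a positive change at an unadjusted p under 0.05.

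The make-up of each family shifted with these levels. Within each library the RPKM of the 8 E2f genes, a measure per length, were summed and each class was taken as a share of the sum. The share of E2f7 and E2f8 together was 1.04 to 2.45% in Scahigh34a, 14.3 to 15.6% in ScahighNT, 15.6 to 22.3% in Scahigh and 9.42 to 11.5% in Scalow libraries. The activators held 16.6 to 18.5% in Scahigh34a and 19.2 to 19.8% in ScahighNT libraries, and 21.3 to 22.7% in Scahigh and 19.2 to 21.3% in Scalow libraries. The share of E2f4 was 61.1 to 62.7% in Scahigh34a, 47.0 to 48.7% in ScahighNT, 39.0 to 44.1% in Scahigh and 36.6 to 40.8% in Scalow libraries. The level of E2f4 itself differed by less than its spread between Scahigh34a and ScahighNT cells, and the sum was 26.7 to 28.6 RPKM in Scahigh34a and 35.6 to 37.6 RPKM in ScahighNT libraries.

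Among the 3 pocket protein genes, with Rbl2 included, Rbl1 made up 26.1 to 29.6% of the summed RPKM in Scahigh34a libraries and 69.0 to 71.3% in ScahighNT libraries. Rbl2 made up 40.2 to 43.8% in Scahigh34a and 12.1 to 12.96% in ScahighNT libraries, and Rb1 29.3 to 31.9% and 16.6 to 18.1%. The gene with the highest level per length was thus Rbl2 in each Scahigh34a library and Rbl1 in each of the other 9. Rbl1 was 63.1 to 66.8% of the sum in Scahigh and 79.1 to 80.0% in Scalow libraries. These shares are within a library and do not depend on the scaling, and they are a description with no test.

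**Figure D3:**
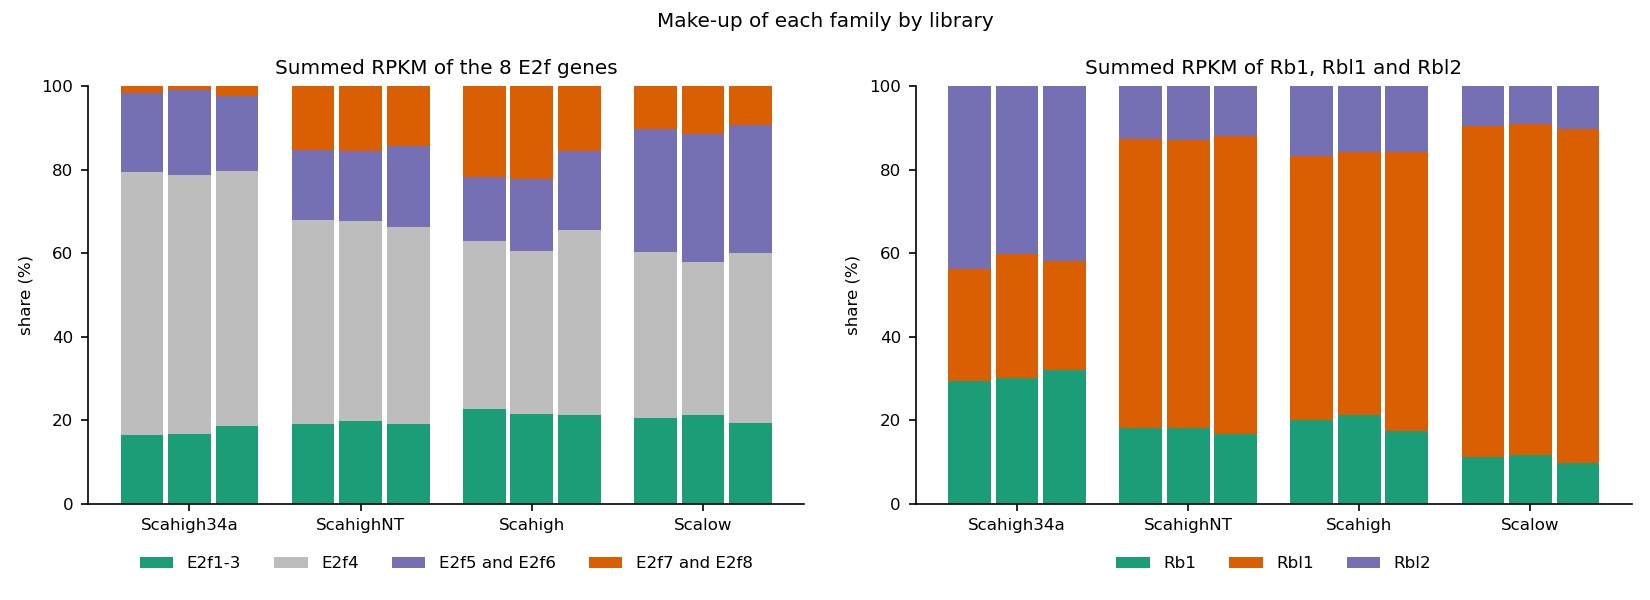
Share (%) of summed RPKM in each of the 12 libraries, grouped as Scahigh34a, ScahighNT, Scahigh and Scalow, for the 8 E2f genes (left) and for Rb1, Rbl1 and Rbl2 (right). In Scahigh34a libraries the E2f7 and E2f8 share was at most 2.45% and the Rbl2 share at least 40.2%.

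The genes around the families were described by 4 lists. Of 38 textbook E2F targets of G1/S and DNA replication, 37 were called lower in Scahigh34a than in ScahighNT cells, beside 21.4% of all tested genes. The list median of the log2 fold change was −2.82, beside −0.03 over all tested genes. No gene of this list was called higher by limma or limma-voom, and none had a positive change at an unadjusted p under 0.05. Mcm5, a subunit of the replicative helicase, was at 1.46 ± 0.0660 RPKM in Scahigh34a and 42.5 ± 0.568 RPKM in ScahighNT cells (SD, n = 3 each), and Mcm3, of the same complex, at 4.64 ± 0.219 and 55.4 ± 0.252 RPKM. Mad2l1, of the spindle checkpoint, was at 3.94 ± 0.234 and 30.4 ± 0.230 RPKM. The single target not called was Ezh2, a Polycomb methyltransferase named after its values were seen, at −0.57 ± 0.20 on the log2 scale (SE, adjusted p = 0.025).

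E2F4, a DP partner, a pocket protein and the MuvB core form the DREAM repressor, while B-MYB (from Mybl2) and FOXM1 join MuvB in proliferating cells and are not part of it. A list of 10 genes held 7 for DP partners and the MuvB core, of which 5 were lower in Scahigh34a cells, and Mybl1, Mybl2 and Foxm1, which were all lower, beside 21.4% of all tested genes. The median log2 fold change of the list was −1.64. Limma and limma-voom called none of them higher, and none had a positive change at an unadjusted p under 0.05. Lin9 and Lin54, of the MuvB core, had log2 fold changes of −2.12 ± 0.08 and −1.82 ± 0.07, and Mybl1, a MYB factor, −1.89 ± 0.08 (SE, largest adjusted p = 1.1e-09). The main DP partner, Tfdp1, named after its values were seen, was at 20.5 ± 1.53 RPKM in Scahigh34a and 56.6 ± 2.62 RPKM in ScahighNT cells (SD, n = 3 each), with a log2 fold change of −1.46 ± 0.08 (SE, adjusted p = 2.5e-08). Of 13 corepressor partners of E2F6, 4 were lower, beside 21.4% of all tested genes, among them L3mbtl2 (−1.22), Cbx3 (−0.88) and Wdr5 (−0.56), and the list median was −0.24. This count was 2 with unscaled values, with upper quartile scaling and with limma-voom, and nothing is read from it. Limma and limma-voom called no E2F6 partner higher, and none had a positive change at an unadjusted p under 0.05.

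Upstream of the pocket proteins, 13 of 15 genes for G1 kinases, cyclins and their inhibitors were tested, and 2 were higher and 7 lower in Scahigh34a cells, beside 17.5% higher and 21.4% lower over all tested genes. Both risers encode kinase inhibitors, Cdkn2b (p15) at 18.2 ± 2.30 RPKM in Scahigh34a and 5.13 ± 0.278 RPKM in ScahighNT cells and Cdkn1a (p21) at 29.1 ± 13.3 and 8.15 ± 1.28 RPKM (SD, n = 3 each). Another inhibitor, Cdkn2c (p18), named after its values were seen, fell, to 7.18 ± 0.945 RPKM in Scahigh34a cells, against 20.8 ± 0.871 RPKM in ScahighNT cells (SD, n = 3 each), with a log2 fold change of −1.53 ± 0.10 (SE, adjusted p = 6.8e-08). The fallers with the smallest p were Ccne1 (log2 fold change −2.39 ± 0.08), Ccne2 (−2.76 ± 0.10) and their kinase Cdk2 (−1.07 ± 0.06), with a largest adjusted p of 3.7e-08, and all 3 are also on the target list. With libraries 3 and 12 left out, 37 targets, 7 genes of the DP and MuvB list, 3 E2F6 partners and 7 G1 genes were lower.

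In the comparison of Scahigh with Scalow cells, where 19.9% of all tested genes were called higher and 20.4% lower, 2 of the 38 targets were higher and 4 lower, and their median was −0.15. The DP and MuvB list had 1 gene lower, the E2F6 partners 1 higher and 1 lower, and the G1 genes 4 higher and 1 lower. Between ScahighNT and Scahigh cells, 10.4% of all tested genes were called higher and 11.1% lower. There limma called none of the 38 targets, and limma-voom called none of 34. At an unadjusted p under 0.05, limma had 3 targets higher and 8 lower. The share of all tested genes at that unadjusted p was not counted, so nothing is read from these numbers.

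**Figure D4:**
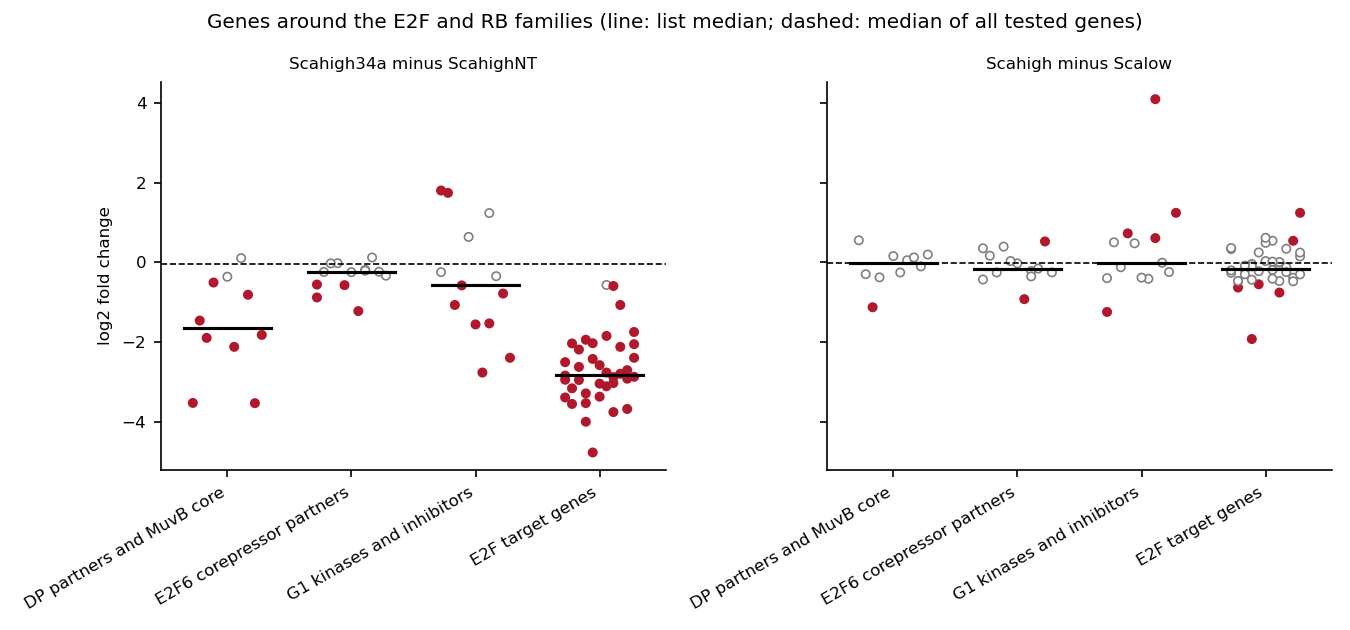
Log2 fold changes of the tested genes of 4 lists for Scahigh34a minus ScahighNT (left) and Scahigh minus Scalow (right). Points are genes, filled where called, solid lines are list medians and dashed lines are the medians of all tested genes. The target list has its median at −2.82 on the left and at −0.15 on the right.

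Over the 12 libraries, the genes outside the families whose log2 level followed that of E2f1 most closely were Ctse, Zbtb39, Elmsan1, Cic and Pacs1, with Pearson's r of 0.99, 0.99, 0.98, 0.98 and 0.98. Ctse, which encodes the protease cathepsin E, was at 1.17 RPKM in Scahigh34a, 3.06 RPKM in ScahighNT, 5.90 RPKM in Scahigh and 3.02 RPKM in Scalow cells. Among the members, r with E2f1 was 0.95 for E2f8, 0.90 for E2f7, 0.86 for Rbl1, 0.85 for E2f2, 0.64 for Rb1, 0.59 for E2f3, 0.42 for E2f6, 0.33 for E2f5 and 0.26 for E2f4. The points share groups, scaling and the libraries that stood apart, and the values are a description. By level, E2f1 ranked as Scahigh, ScahighNT, Scalow and Scahigh34a cells, and the neighbours ScahighNT (2.46 ± 0.264 RPKM) and Scalow (2.42 ± 0.307 RPKM, SD, n = 3 each) did not differ beyond their spread.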

How the data were processed

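RNA-seq of 12 libraries of CommaDβ cells was used. The authors deposited RPKM values per gene and library in a table described as raw reads. In the notes of the submitters, TopHat2 2.0.6, DESeq2 and the mm9 build are listed. How reads were counted, on which strand and with which annotation is not given in the sources used here. Also in the table are the authors' own group means, fold changes, p-values and selections, none of them used. Groups followed titles and source names. Columns name a library by group and a running number.

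RPKM were scaled by an unweighted trimmed mean of M values (30% of M and 5% of A values trimmed). Every gene that reached 1 RPKM in 3 or more libraries was tested by limma 3.58.1 (R 4.3.3) on log2(scaled RPKM + 0.1), with 1 mean per group, a mean-variance trend and Benjamini-Hochberg adjustment over all tested genes. Calls needed an adjusted p below 0.01 and a log2 fold change over 0.5 in size. The model was tested on simulated data. The steps between RPKM values gave back whole reads, to within 0.02 of a read, for 92.3% of tested genes. The tolerance was wider for genes with very many reads. The recovered reads served for limma-voom as an alternative. Intervals are at 95%. The precision of low genes is limited by these reads. Entries without a symbol (182) were kept by identifier.

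The text names all members, up to 3 called genes per direction and list with the smallest p in Scahigh34a minus ScahighNT, the 5 genes most like E2f1 (predicted genes left out), and Mir34a and Ly6a. Members and lists were chosen with earlier results of these data known. The lists overlap. Sequences came from RefSeq and GENCODE tables of GRCm38, another build than the authors', and were matched by symbol. Alternatives covered pseudocounts, filters, scaling, thresholds, libraries left out and the model. Python 3.11.15, pandas 2.3.3 and matplotlib 3.10.9 were used.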

Additional observations from a re-analysis of the deposited data

How the results depend on the processing

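The 4 members called lower in Scahigh34a minus ScahighNT were also called under each alternative in which they were tested. Of 10 members, 3 could not pass a minimum of 1 RPKM in every library, and the counts of members called were then 2 for Scahigh34a minus ScahighNT and 4 for Scahigh34a minus Scahigh, because fewer members were tested. At an adjusted p below 0.05 with no fold threshold, 9 members were called in Scahigh34a minus ScahighNT, 7 in Scahigh minus Scalow and 3 in ScahighNT minus Scahigh. In Scahigh34a minus Scahigh, all members but E2f4 were called. Most of the 10597 tested genes were then called too, with 6881, 7175, 5367 and 7712 in these comparisons, so nothing is read from the member counts. With the main thresholds, the calls over all tested genes were 4129, 4272, 2285 and 5029. In ScahighNT minus Scahigh, 0 members were called with a pseudocount of 1 RPKM and 4 with libraries 3 and 12 left out, for which the cause was not tested. At 1 RPKM in every library, all tested genes gave 1274 calls there, but only 8449 genes were then tested. With each library left out in turn, the members called were 4 to 5 in Scahigh34a minus ScahighNT, 3 to 5 in Scahigh minus Scalow, 1 to 4 in ScahighNT minus Scahigh and 6 to 7 in Scahigh34a minus Scahigh. Single log2 fold changes, with Rbl2 included, kept direction and side of the thresholds in 877 cases, lost the call in 16, gained it in 29 and changed sign in 34.

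The sign changes concerned values near 0 that were not called. E2f4 changed sign in Scahigh34a minus ScahighNT with unscaled values (0.016), upper quartile scaling (0.039) and libraries 3 and 12 left out (0.00025), and ranged from −0.048 to 0.016 with 1 library left out. In Scahigh minus Scalow it was −0.024 without a filter and −0.016 to 0.11 with 1 library left out. In ScahighNT minus Scahigh it was −0.0068 at 1 RPKM in every library, −0.077 with upper quartile scaling, −0.037 with libraries 3 and 12 left out and −0.034 to 0.11 with 1 library left out. In Scahigh34a minus Scahigh it was 0.11 without a filter, 0.029 with unscaled values, 0.024 by limma-voom and −0.062 to 0.059 with 1 library left out. E2f2 in Scahigh minus Scalow was 0.074 with unscaled values, 0.068 with upper quartile scaling, 0.012 by limma-voom, 0.043 with libraries 3 and 12 left out and −0.059 to 0.037 with 1 library left out. E2f6 in ScahighNT minus Scahigh was 0.052 without a filter. No paired analysis was possible because the columns carry running numbers and not the replicate numbers of the labels. The depth limits E2f7 in Scahigh34a cells, which rests on 171 reads in all.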
